A study of Homo sapiens with 36 samples.

Results

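The question here was whether MDA-MB-231 cells that carry both changes of the isoleucine tRNA pool shift individual mRNAs between light and heavy polysomes. For each gene, the log2 difference between the high- and the low-translating fraction was taken in the doubly changed line, called isoswitch, and the same difference in the control line was subtracted. A positive value means that the mRNA lay further towards heavy polysomes in isoswitch than in control. The value rests on 12 of the 36 libraries of the series, 3 for each of 2 fractions in 2 lines, and total RNA does not enter it. MDA-MB-231 is a human triple-negative breast cancer line, whose source is labelled as a xenograft cell line. Control cells had CRISPR interference (CRISPRi) against eGFP and a control overexpression construct. Isoswitch cells had CRISPRi against tRNA-Ile-GAU, named by its anticodon, and overexpressed tRNA-Ile-UAU. For comparison, the UAU line had the eGFP CRISPRi with the tRNA-Ile-UAU overexpression alone, and the GAUi line had the tRNA-Ile-GAU CRISPRi with the control overexpression construct. All cells were exposed to 100 ug/mL cycloheximide for 5 min before freezing. The low fraction held the 80S monosome and the first polysome peak, and the high fraction held the heavier polysomes. The labels do not say whether the lines are clones or pools, nor whether A, B and C came from separate cultures. A p-value here thus reflects no more than how these samples vary, which may be technical.

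A ribosome covers a short stretch of coding sequence, so an mRNA that initiates often carries many ribosomes and sediments deep in a sucrose gradient, while a rarely initiating or very short mRNA stays near the monosome. Isoleucine has several codons. The tRNA with the UAU anticodon reads the AUA codon, and the other isoleucine codons are read by tRNAs whose anticodons differ in their first base, GAU among them. A codon that is read slowly can hold ribosomes on an mRNA and make it heavier, and poor initiation can make it lighter, so a heavy-to-light ratio alone is not a rate of protein synthesis. Cycloheximide freezes elongating ribosomes in place during harvest.

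The libraries read the 3' ends of polyadenylated RNA, so the tRNAs themselves were not measured. The 12 libraries held 5310594 to 8974001 counts each. Levels are given as CPM after TMM scaling over the 12 libraries. They are shares of a library, so a shift of the whole transcriptome between fractions is not visible and every change is relative to the other mRNAs. In bulk samples fewer cells of a type and less RNA per cell cannot be told apart. Of 12 markers of the basal, mesenchymal-like MDA-MB-231 state, 11 had enough counts to be tested (SPARC averaged 0.496 CPM), and the 12 summed to 2680 to 4710 CPM, against 228 to 532 CPM for 12 luminal markers, of which 7 were tested. Fibroblast, leukocyte and endothelial markers summed to at most 4.45, 18.3 and 8.21 CPM, and 2 of 8, 3 of 7 and 2 of 6 of them had no count in the 12 libraries. One library stood apart. Replicate B of the control low fraction differed from A and C (chi-square over genes divided by its degrees of freedom, 15 and 13.1), whereas A and C differed by 2.79, and all other replicate pairs of the fractions lay between 2.41 and 8.97. Results are therefore given with all 12 libraries and without it.

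With all 12 libraries, the heavy-to-light ratio of nearly every gene was not separable from the spread between replicates. Only ARPC1B passed among 12354 genes tested (edgeR quasi-likelihood test, Benjamini-Hochberg adjusted p under 0.05), which is 0.00809% of genes higher and 0% lower. At an unadjusted p under 0.05, 1344 genes passed, 494 higher (4%) and 850 lower (6.88%). DESeq2 called 5 genes on the same libraries, ARPC1B as higher and, as lower, COX17 (adjusted p = 0.0347), PMAIP1 and NR2C2AP (adjusted p = 0.0387 for each) and CCNI (-0.51, adjusted p = 0.0324), the last named after its values were seen. The median change over all genes was -0.02 on the log2 scale. In contrast, the 2 fractions themselves differed widely within each line, with 8102 genes called between high and low in control and 8269 in isoswitch.

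ARPC1B encodes a subunit of the Arp2/3 complex, which nucleates branched actin filaments (chromosome 7, 99374259 to 99394816, GRCh38.p14). In the low fraction it had 279.6, 246.8 and 303.6 CPM in control replicates A, B and C and 128, 149.7 and 144 CPM in isoswitch. In the high fraction it had 173.2, 178.5 and 179.5 CPM in control and 165.6, 160.5 and 157.7 CPM in isoswitch. The light pool of this mRNA was thus lower in every isoswitch library, while the heavy levels of the lines lay close together without overlapping. The ratio rose by 0.84 on the log2 scale (SE 0.13, adjusted p = 0.045, edgeR quasi-likelihood test; 95% interval 0.57 to 1.12). In the low fraction ARPC1B fell by 0.98 (adjusted p = 1.00e-05), and in the high fraction its log2 difference was -0.13, of the same sign (adjusted p = 0.461). In control the mRNA lay towards the light side, with a high minus low log2 difference of -0.64 (adjusted p = 4.87e-06). In isoswitch the difference was 0.20 and did not pass (adjusted p = 0.0697), so a place on the heavy side is not established.

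The size of the ARPC1B change was similar under all 19 settings tried, from 0.77 to 0.92, but its call was not. It passed under 7 of them, with adjusted p from 1.11e-05 by DESeq2 to 0.581, and was lost on leaving out any library other than replicate B of the control or the isoswitch low fraction. Without control low B it was 0.92 (adjusted p = 0.000349). The annotated span of ARPC1B overlaps that of PDAP1 (chromosome 7, 99394673 to 99408597) by their ends. As the strand setting of the counting is not given in the sources used here, reads from that stretch could be assigned to either. PDAP1 fell in both fractions, by 0.44 in the high (adjusted p = 0.00404) and by 0.38 in the low (adjusted p = 0.0180), and its ratio difference was -0.06 (adjusted p = 0.878).

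**Figure D1:**
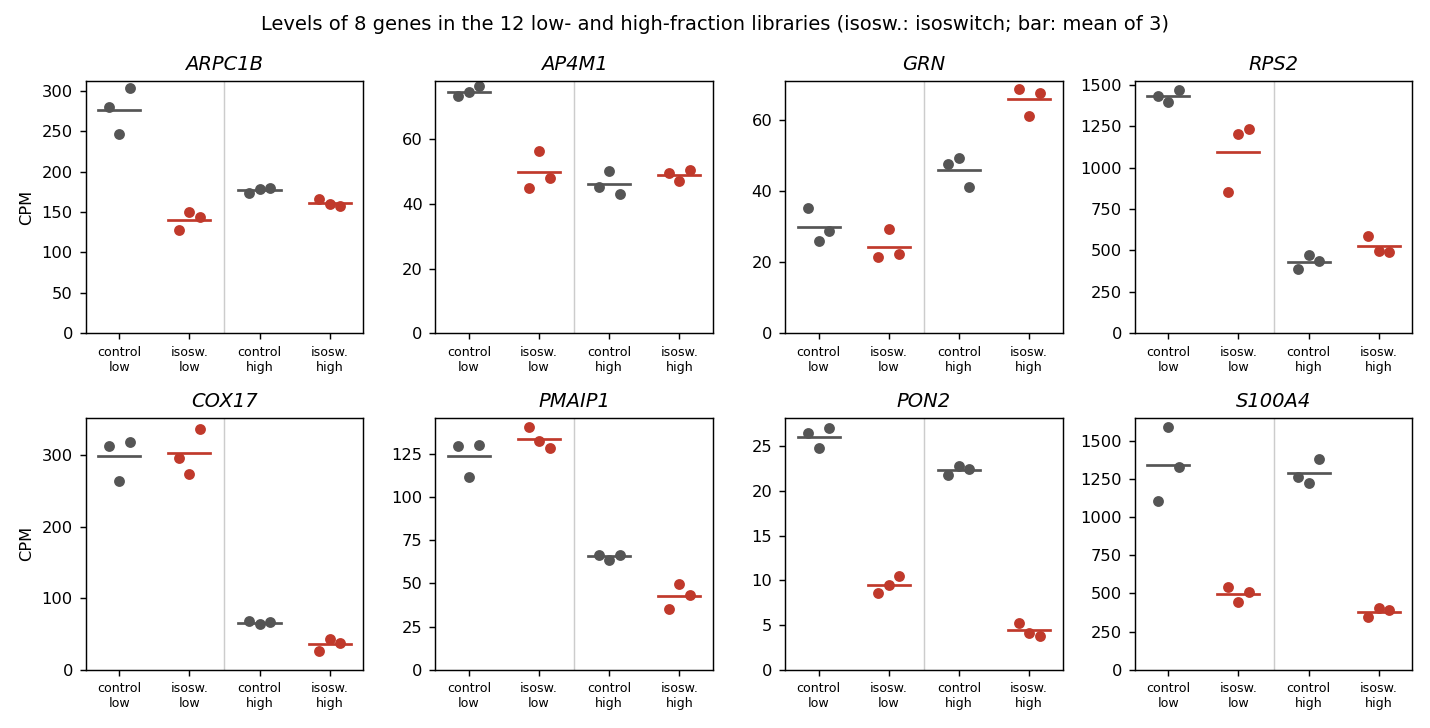
Level in CPM (vertical axis, starting at 0) of 8 genes in the low and high fraction of control (grey) and isoswitch (red) cells; points are replicates A, B and C from left to right and lines are means of 3. ARPC1B and AP4M1 are lower in the isoswitch low fraction but close in the high fraction, COX17 and PMAIP1 are lower in the isoswitch high fraction alone, and PON2 and S100A4 are lower in both.

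Genes below the call are described by the smallest p in each direction, among genes whose log2 CPM averaged 3 or more, and none of them passed (adjusted p = 0.241 for each of the 19, edgeR quasi-likelihood test), although COX17, PMAIP1 and NR2C2AP passed with DESeq2. In the higher direction, all 10 genes including ARPC1B had a negative difference in the low fraction, and 9 had a positive one in the high fraction. As the genes were picked by the ratio, which holds both differences, these signs are a description. AP4M1 encodes a subunit of the AP-4 vesicle coat. It had 73.32, 74.8 and 76.43 CPM in the control low fraction and 44.85, 56.42 and 48.01 CPM in the isoswitch low fraction. Its heavy levels were 45.39, 50.28 and 43.03 CPM in control and 49.71, 46.97 and 50.48 CPM in isoswitch, which overlap. Its low-fraction level fell by 0.59 (adjusted p = 0.00345), and its ratio differed by 0.67 (SE 0.15). TAF6, a subunit of the general transcription factor TFIID, fell by 0.54 in the low fraction (adjusted p = 0.00388) and had a ratio difference of 0.57. The annotated spans of AP4M1 and TAF6 overlap on chromosome 7 (100107070 to 100109039), so their reads are uncertain, and AP4M1 also overlaps MCM7. ARPC1B, which also fell in the low fraction, lies on the same chromosome (99374259 to 99394816). These genes may thus not be separate observations, and whether their changes share an origin was not tested.

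GRN encodes progranulin, a secreted precursor that is processed in lysosomes. It had 47.59, 49.19 and 41.22 CPM in the control high fraction and 68.55, 60.99 and 67.65 CPM in the isoswitch high fraction, with no overlap. In the low fraction the lines overlapped, with 35.2, 25.91 and 28.62 CPM in control and 21.46, 29.24 and 22.29 CPM in isoswitch. GRN rose in the high fraction by 0.51 (adjusted p = 0.0213), and its ratio differed by 0.81 (SE 0.19). ZRANB2-AS1, a long non-coding RNA that overlaps ZRANB2 and is therefore uncertain, rose in the high fraction by 0.53 (adjusted p = 0.0234; ratio difference 0.73).

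RPS2, a protein of the small ribosomal subunit, had 1432, 1399 and 1470 CPM in the control low fraction and 851.2, 1202 and 1235 CPM in the isoswitch low fraction. The heavy fraction held 385.9, 469.5 and 438 CPM in control and 584.6, 497.6 and 489 CPM in isoswitch. The isoswitch values lay below control in the low and above control in the high fraction, but neither fraction passed (adjusted p = 0.0966 and 0.205), and replicate A gave the most extreme isoswitch value in both. The ratio difference of RPS2 was 0.67 (SE 0.17), and its many processed pseudogenes make the assignment of its reads uncertain. The remaining 4 were SEC31A, a component of the COPII coat of vesicles leaving the endoplasmic reticulum (0.51), DIDO1 (0.63), SRRD (0.62) and SH3BGRL (0.50). None of these passed in either fraction. Against the same control libraries, the ratio change of SRRD passed in UAU (0.61, adjusted p = 0.0171, edgeR quasi-likelihood test, 24 libraries). That of SH3BGRL passed in GAUi (0.73, adjusted p = 0.0213). SEC31A and DIDO1 passed in neither line.

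In the lower direction all 10 genes were negative in the high fraction and 6 of them were called there, against 3.59% of all genes called lower. These genes too were picked by the ratio, which holds these values, so the counts are a description. COX17 is the copper chaperone that supplies cytochrome c oxidase. It had 68.24, 63.22 and 66.35 CPM in the control high fraction and 26.34, 43.12 and 37.81 CPM in the isoswitch high fraction, whereas its low-fraction levels overlapped, with 312.8, 264 and 317.9 CPM in control and 296.3, 273.7 and 336.6 CPM in isoswitch. COX17 was already a light mRNA in control, with a high minus low log2 difference of -2.18, and lay at -3.08 in isoswitch. Its high-fraction level fell by 0.89 (adjusted p = 0.000912), and its ratio differed by -0.91 (SE 0.19; 95% interval -1.30 to -0.51).

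PMAIP1 encodes the pro-apoptotic BH3-only protein NOXA. Its high-fraction levels were 66.7, 63.77 and 66.71 CPM in control and 35.27, 49.44 and 43.36 CPM in isoswitch. Its low-fraction levels were 129.3, 111.7 and 129.8 CPM in control and 140.6, 132.2 and 128.3 CPM in isoswitch, where the lines overlapped. It fell by 0.62 in the high fraction (adjusted p = 0.00269), with a ratio difference of -0.74 (SE 0.16).

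SRXN1, the sulfiredoxin that restores oxidised peroxiredoxins, fell by 0.51 in the high fraction (adjusted p = 0.0346; ratio difference -0.85). Of the non-coding transcripts, CENPBD1P1 fell there by 0.69 (adjusted p = 0.000923; ratio difference -0.68), PP7080 by 0.90 (adjusted p = 0.00779; -1.13) and NNT-AS1 by 0.57 (adjusted p = 0.00528; -0.73). PP7080 and NNT-AS1 overlap the coding genes SLC9A3 and NNT, so their reads are uncertain.

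For 3 of the 10, the high fraction was negative (-0.29 for NR2C2AP, -0.27 for C1orf21 and -0.18 for NOP16) but did not pass, and the low fraction did. NR2C2AP rose there by 0.40 (adjusted p = 0.0375; ratio difference -0.69), C1orf21 by 0.37 (adjusted p = 0.0450; -0.64) and NOP16, a nucleolar protein of ribosome biogenesis, by 0.44 (adjusted p = 0.0246; -0.63). NR2C2AP overlaps RFXANK and its reads are uncertain. ZDHHC7, a protein palmitoyltransferase, passed in neither fraction and had a ratio difference of -0.66.

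**Figure D2:**
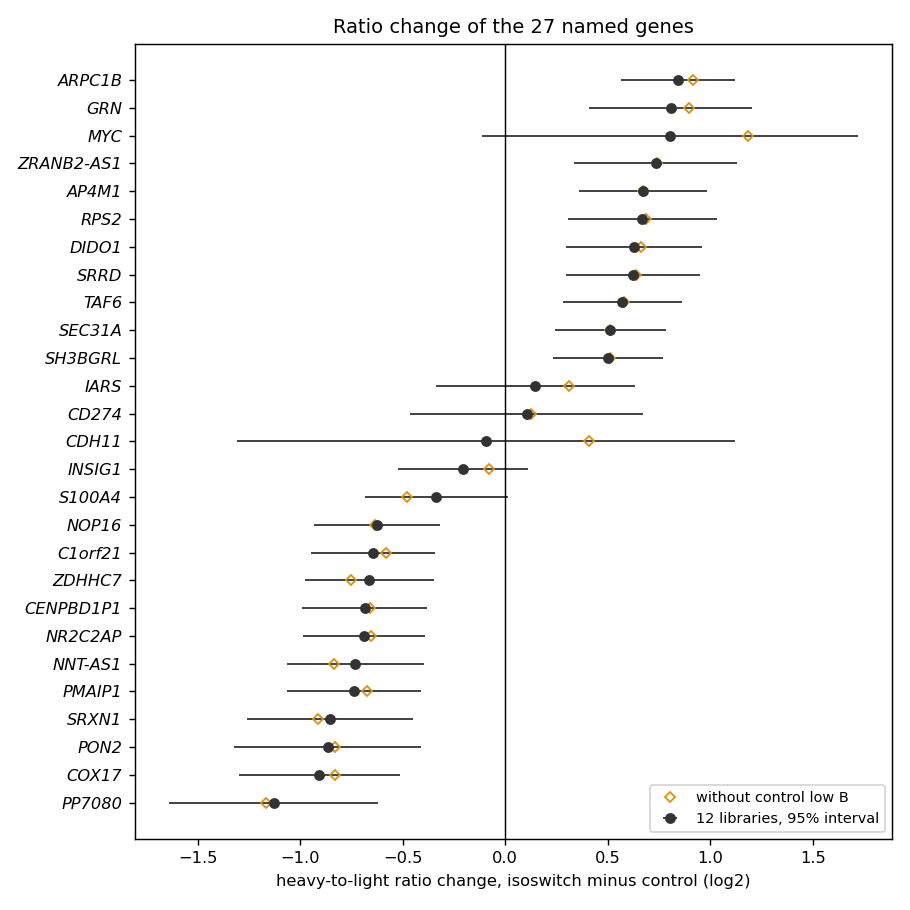
Heavy-to-light ratio change, isoswitch minus control, on the log2 scale (horizontal axis) for 27 genes; filled circles with 95% intervals are from 12 libraries and open diamonds from 11, without replicate B of the control low fraction. Of the 27, 13 lie above 0, and the diamonds of MYC and CDH11 move furthest from their circles.

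Some mRNAs with large level changes in isoswitch had little change of ratio, since both fractions moved together. In the high fraction 627 genes were called against control, 183 higher (1.48%) and 444 lower (3.59%), and in the low fraction 332, 128 higher (1.04%) and 204 lower (1.65%). Called in both were 165 genes, 26.3% of the first set and 49.7% of the second, and all 165 had the same direction in both. For 150 of the 165, the 95% interval of the ratio change lay within 1 log2 unit of 0. This share is close to that of all genes whose log2 CPM averaged 3 or more, 8212 of 8948, so it does not set the 165 apart. Both contrasts come from the same fit but from different libraries.

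S100A4 encodes a calcium-binding protein associated with metastasis. It had 1106, 1588 and 1329 CPM in the control low fraction and 544.3, 441.8 and 507.2 CPM in the isoswitch low fraction. The high fraction held 1262, 1220 and 1379 CPM in control and 344.7, 401.6 and 388.7 CPM in isoswitch. Every isoswitch library lay below every control library in its fraction. S100A4 fell by 1.77 in the high and by 1.43 in the low fraction (adjusted p = 3.96e-08 and 2.71e-06). The ratio difference was -0.34 (SE 0.17, adjusted p = 0.476; 95% interval -0.69 to 0.01), but without control low B, whose 1588 CPM was the highest low-fraction value, it was -0.48 and passed (adjusted p = 0.0473).

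INSIG1 holds the sterol-sensing SCAP-SREBP complex in the endoplasmic reticulum. It fell from 323.2, 345.1 and 356.9 CPM in control to 148.4, 146.3 and 151.4 CPM in isoswitch in the high fraction, by 1.20 (adjusted p = 3.50e-06). In the low fraction it fell from 379.2, 289.9 and 402.6 CPM to 194.9, 175.5 and 167.3 CPM, by 0.99 (adjusted p = 4.22e-05). The lines did not overlap in either fraction. Its ratio difference was -0.21 (adjusted p = 0.649), with a 95% interval from -0.52 to 0.11.

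PON2, an intracellular lactonase of the paraoxonase family, had the largest ratio difference among these strongly changed genes. It fell from 26.45, 24.81 and 27.05 CPM to 8.59, 9.54 and 10.46 CPM in the low fraction (by 1.46, adjusted p = 1.00e-05). In the high fraction it fell from 21.75, 22.75 and 22.42 CPM to 5.24, 4.16 and 3.82 CPM (by 2.32, adjusted p = 3.96e-08). The ratio difference was -0.87 (SE 0.22, adjusted p = 0.241) with all 12 libraries and -0.83 without control low B (adjusted p = 0.0417).

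CD274, the gene of PD-L1, a ligand that restrains T cells, rose by 0.87 in the high fraction (adjusted p = 0.00628) and by 0.77 in the low (adjusted p = 0.0455), and its ratio difference was 0.10 (95% interval -0.46 to 0.67). The cadherin CDH11 rose by 2.09 and by 2.18 (adjusted p = 0.00166 and 0.00964), but it had under 3 CPM in every control library, and its ratio interval ran from -1.31 to 1.12. Both ratios changed sign on leaving out single libraries. MYC, the growth-promoting transcription factor, had 17.88, 4.56 and 13.79 CPM in the control low fraction, and replicate B was the lowest. Its ratio difference was 0.80 (SE 0.44, adjusted p = 0.515) with all libraries and 1.18 without that one (adjusted p = 0.0205). The isoleucyl-tRNA synthetase of the cytosol, IARS, had a ratio difference of 0.15 (95% interval -0.34 to 0.63) and overlapping levels in both fractions.

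**Figure D3:**
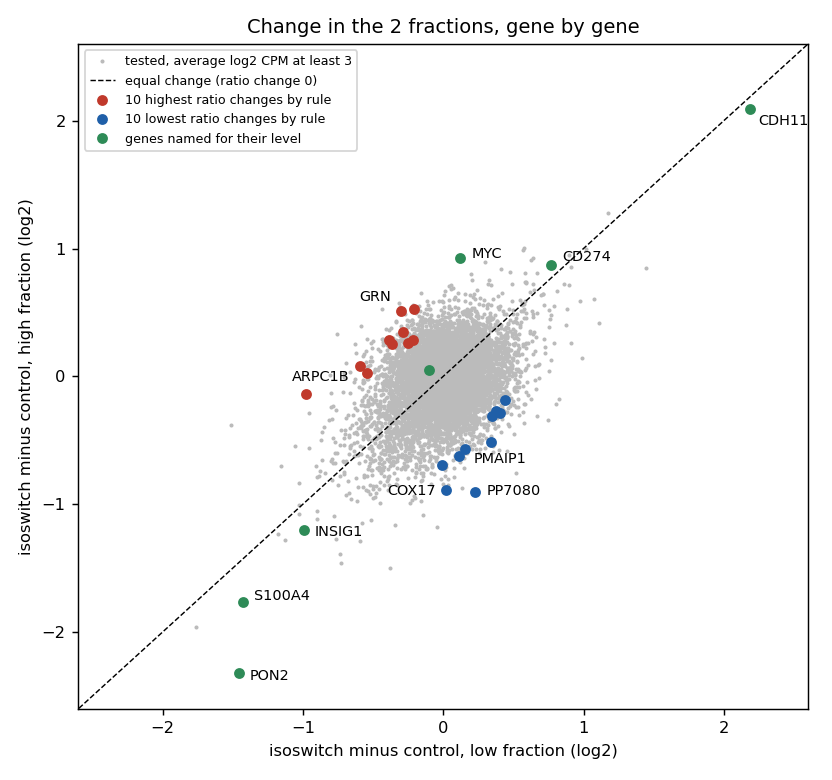
Isoswitch minus control in the low fraction (horizontal) against the same in the high fraction (vertical), both on the log2 scale. Grey points are 8948 genes whose log2 CPM averaged 3 or more. Coloured points are the 27 named genes, of which CDH11 lies below that average (2.34). The vertical distance from the dashed diagonal is the ratio change. PON2, S100A4, INSIG1, CD274 and CDH11 lie far from the origin and nearer to the diagonal than to either axis, while ARPC1B lies left of it and COX17 below it.

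How precisely a ratio change was estimated depended on abundance. Over all 12354 genes the median half-width of the 95% interval was 0.47 log2 units, and for 8921 genes the whole interval lay within 1 log2 unit of 0. Where the average log2 CPM was 3 or more the half-width was 0.39, with 8212 of 8948 genes within that bound, and at 7 or more it was 0.30, with 1472 of 1525. A 2-fold ratio change is therefore outside the interval of most abundant mRNAs. These intervals are for single genes and are not adjusted for the number tested, so they do not give the smallest change that would be called. PP7080 (-1.13) and COX17 (-0.91) did not pass, at adjusted p = 0.241 each (edgeR quasi-likelihood test).

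Gene groups were described by 23 lists with 680 tested entries, 674 of them distinct. None had a called member in the ratio change with 12 libraries. Against the median of all genes of -0.02, list medians ran from -0.28 to 0.27, with 12 above and 11 below 0. The counts of list members are to be read against those over all genes, of which 4% were higher and 6.88% lower at an unadjusted p under 0.05, and 1.05% and 3.11% passed without control low B. Members named in the next 4 paragraphs have the smallest p of their list and were chosen after their values were seen.

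Mitotic mRNAs had a median ratio change of 0.20, with 22 of 30 above 0, and 9 higher and 0 lower at an unadjusted p under 0.05. NUSAP1, a microtubule-bundling protein of the spindle, had 173.6, 176.2 and 181.5 CPM in the control low fraction and 132.9, 163.4 and 162.9 CPM in isoswitch. Among heavy polysomes it had 171.6, 181.3 and 158.4 CPM in control and 216, 186.2 and 198.8 CPM in isoswitch, so the isoswitch libraries lay below control in the light and above it in the heavy pool. Its ratio difference was 0.44 (adjusted p = 0.295, edgeR quasi-likelihood test). The mitotic kinase PLK1 had 0.54 (adjusted p = 0.317) and cyclin B1, CCNB1, 0.39 (adjusted p = 0.304). Without control low B, 3 of 30 passed as higher and 0 as lower, and without replicate A of the isoswitch high fraction the list median was 0.13.

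Nuclear-encoded subunits of the respiratory chain had a median of -0.14, with 16 of 54 above 0, and 0 higher and 12 lower at an unadjusted p under 0.05. UQCRH, the hinge protein of complex III, had 282.1, 253 and 302.6 CPM in the control high fraction and 142.8, 214.1 and 198.4 CPM in isoswitch, with no overlap. Its low-fraction levels were 1015, 955.6 and 1041 CPM in control and 1023, 994.1 and 1065 CPM in isoswitch, which overlap. It fell by 0.59 in the high fraction (adjusted p = 0.00559), with a ratio difference of -0.63 (adjusted p = 0.241). The complex I subunits NDUFB1 (-0.56) and NDUFA1 (-0.48) did not pass in either fraction. Without control low B, 7 of 54 passed as lower and 0 as higher.

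Among the translation machinery, 17 of 20 cytosolic aminoacyl-tRNA synthetases lay above 0 (median 0.14; 3 higher and 0 lower at an unadjusted p under 0.05), with FARSA, a phenylalanyl-tRNA synthetase subunit, at 0.46. Small ribosomal subunit proteins had a median of -0.11, with 2 higher and 6 lower at that p, and -0.20 without control low B, where 1 of 32 passed as higher and 6 as lower. RPS26 fell by 0.38 in the high fraction (adjusted p = 0.0195; ratio difference -0.48), and RPS21 had a ratio difference of -0.56. Large subunit proteins had a median of 0.04, with 4 higher and 2 lower. Translation factors had 0.05, with 6 higher and 2 lower. Of the genes for tRNA transcription and modification, 1 of 37 was higher and 1 lower at that p, both no more than the share over all genes, with the RNA polymerase III subunit POLR3K at -0.61.

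Long non-coding and snoRNA host RNAs, which lie mostly in the light fraction, had the lowest median, -0.28, with 4 of 27 above 0 (1 higher and 6 lower at an unadjusted p under 0.05). In the high fraction 6 of 27 were called lower and 0 higher, and in the low 1 was called lower. Over all genes, 3.59% were lower in the high fraction and 1.65% in the low. ZFAS1, the host of several snoRNAs, had 89.34, 95.51 and 94.19 CPM in the control high fraction and 50.42, 77.31 and 68 CPM in isoswitch, and fell there by 0.51 (adjusted p = 0.0388). Replicate A of the isoswitch high fraction was lowest, and over the list its levels differed from the mean of B and C by a median of -0.29. Without that library the list median was -0.20.

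The stress and sterol lists had mixed or small values. In the list of the integrated stress response, whose factors ATF4 and ATF5 are translated through upstream reading frames, the median was -0.04 with 12 libraries and 0.07 without control low B. Of 28 members, 2 were higher and 2 lower at an unadjusted p under 0.05. Without control low B, 1 passed as higher and 2 as lower. ATF4 had 351.4, 351.5 and 417.2 CPM in the control high fraction and 224.6, 306.3 and 273.4 CPM in isoswitch. Its low-fraction levels overlapped, with 1200, 1799 and 1363 CPM in control and 1629, 1396 and 1566 CPM in isoswitch. ATF4 fell by 0.48 in the high fraction (adjusted p = 0.0477), and ATF5 by 0.52 (adjusted p = 0.0291). Their ratio differences were -0.55 and -0.66, and without control low B, which had the highest ATF4 level of the control low fraction, both passed (-0.73 each, adjusted p = 0.00777 and 0.0163).

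Of 28 cholesterol synthesis genes, 5 were called lower in the high fraction and 3 in the low, with 0 higher. Over all genes, 3.59% and 1.65% were lower in these fractions. The ratio median of the list was -0.06. The demethylase CYP51A1 fell by 0.76 and by 0.71 (adjusted p = 0.000226 and 0.00138), with a ratio difference of -0.06. Of 27 immediate early genes, 7 were called higher in the high fraction and 5 in the low, with 0 lower. Over all genes, 1.48% and 1.04% were higher. The ratio median of the list was -0.01, or 0.11 without control low B. In that library this list lay at a median of -0.30 from the mean of the other 2, and the part of this in the result was not tested. The phosphatase DUSP5 rose by 0.57 and 0.58 (adjusted p = 0.00708 and 0.0120), with a ratio difference of -0.01. Replication-dependent histone mRNAs, which mostly lack a poly(A) tail and are read poorly here, had a median of 0.27, with 3 of 14 higher at an unadjusted p under 0.05.

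**Figure D4:**
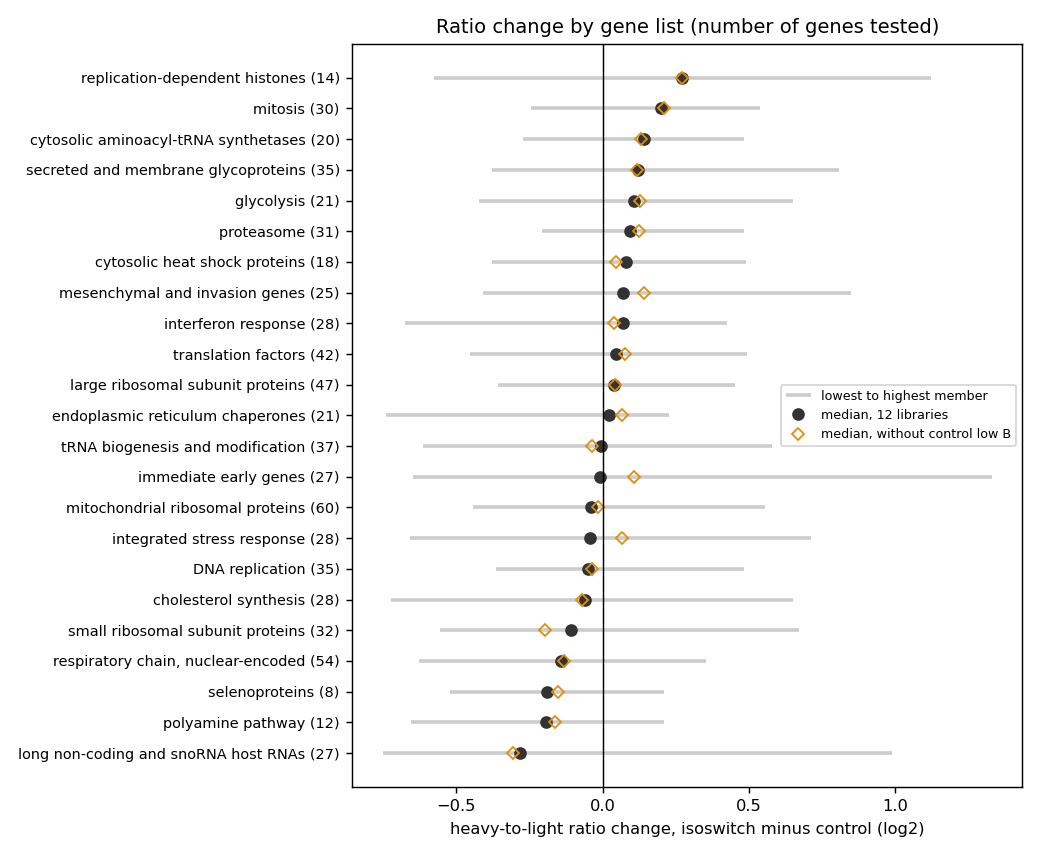
Heavy-to-light ratio change, isoswitch minus control, on the log2 scale for 23 gene lists; grey lines span the lowest to the highest tested member, filled circles are medians with 12 libraries and open diamonds without replicate B of the control low fraction. The medians lie between -0.28 and 0.27, while the members of most lists spread to both sides of 0.

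Whether the combined line differed from each single change was tested directly, as isoswitch high minus low against the same difference in the UAU or the GAUi line, in a fit of 24 libraries (12749 genes). These differences do not use the levels of control cells, but the spread between replicates is estimated from all 24 libraries, control among them. Against UAU, 2490 genes passed, 1256 higher (9.85%) and 1234 lower (9.68%) in isoswitch, and against GAUi 566 passed, 160 higher (1.26%) and 406 lower (3.18%). Set side by side, the ratio change against control was called for 833 genes in UAU, 407 higher (3.19%) and 426 lower (3.34%), and for 25 in GAUi, all higher (0.196%, with 0% lower). These comparisons share the control libraries. The split by direction moved with the scaling. With RLE scaling it was 1035 higher and 1527 lower against UAU, 117 and 533 against GAUi, 506 and 319 for UAU against control, and 43 and 1 for GAUi against control. DESeq2 gave 994 and 1491, 134 and 612, 567 and 358, and 152 and 14 in the same order. With the 12 libraries of the lines compared in the fit, isoswitch had 993 genes higher and 1470 lower than UAU. The calls of GAUi against control were 66 higher and 37 lower with no filter on low counts, and 123 higher and 67 lower without control low B. On leaving out single libraries, the count of isoswitch against UAU ran from 1763 (without isoswitch high A) to 2898 (without control low B) and that against GAUi from 203 (without GAUi low C) to 871 (without control low B). The count of UAU against control ran from 367 (without UAU high A) to 1189 (without UAU high C), and that of GAUi from 0 (among others without GAUi low A) to 190 (without control low B).

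The respiratory chain list was lower in isoswitch than in UAU for 39 of 54 members and higher for 4, with a median of -0.72, and lower than in GAUi for 30 and higher for 0, with a median of -0.50. Over all genes, 9.68% were lower against UAU and 3.18% against GAUi. Against control, the list median was 0.55 in UAU (32 higher, 2 lower) and 0.33 in GAUi (2 higher, 0 lower). In isoswitch it was -0.14, with 0 called in the fit of 12 libraries. In this list the single-change lines thus lay further from control than isoswitch. NDUFA1 went from 281.5 ± 18.3 CPM in light to 479.8 ± 23.5 CPM in heavy polysomes of UAU, and from 419.7 ± 52.9 to 270 ± 27.9 CPM in isoswitch (SD, n = 3, scaled over 24 libraries). The same mRNA had 335.6 ± 16.1 and 297.2 ± 6.82 CPM in control and 339.2 ± 25.4 and 370.4 ± 10.6 CPM in GAUi. UAU cells had NDUFA1 on the heavy side and isoswitch cells on the light side. The difference was -1.41 against UAU (SE 0.13, adjusted p = 4.70e-08, edgeR quasi-likelihood test) and -0.76 against GAUi (adjusted p = 0.00324). NDUFB1 differed by -1.17 and -0.78 (adjusted p = 1.30e-06 and 0.00324).

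Small ribosomal subunit proteins were lower in isoswitch than in UAU for 18 of 32 and higher for 2, and lower than in GAUi for 15 and higher for 0. Large subunit proteins were lower for 17 of 47 and higher for 4 against UAU, and lower for 15 and higher for 0 against GAUi. Mitochondrial ribosomal proteins were lower for 26 of 60 and higher for 6 against UAU, and lower for 10 and higher for 2 against GAUi. Against control, the median of the small subunit list was 0.34 in UAU, 0.33 in GAUi and -0.11 in isoswitch. In the same order, the large subunit list had 0.27, 0.36 and 0.04, and the mitochondrial list 0.32, 0.20 and -0.04. SLIRP, which binds mitochondrial mRNAs (-1.23), and RPA3, a subunit of the single-strand DNA binding complex RPA (-1.25), were among the 4 lowest p in the lower direction against UAU; RPA3 overlaps UMAD1, and its reads are uncertain. Of 28 long non-coding RNAs, 11 were lower and 0 higher against UAU, and 3 were lower against GAUi. Their median against control was 0.23 in UAU, 0.02 in GAUi and -0.28 in isoswitch.

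Other lists went the opposite way against UAU. Glycolytic mRNAs were higher in isoswitch for 12 of 21 and lower for 0 (median 0.69), synthetases for 11 of 20 and 0 (0.46), mitotic mRNAs for 17 of 30 and 2 (0.49), translation factors for 18 of 42 and 2 (0.33), the proteasome for 14 of 31 and 2 (0.45) and cytosolic heat shock proteins for 9 of 18 and 1 (0.58). Over all genes, 9.85% were higher. Against control, the glycolysis median was -0.44 in UAU (9 lower, 0 higher), -0.18 in GAUi and 0.11 in isoswitch. The other lists, in the order above, had medians of -0.25, -0.31, -0.25, -0.32 and -0.57 in UAU against control. In isoswitch they had 0.14, 0.20, 0.05, 0.09 and 0.08. NUSAP1 went from 154.8 ± 13.4 CPM in light to 103.6 ± 3.69 CPM in heavy polysomes of UAU, against 148.3 ± 17.8 and 201.2 ± 15 CPM in isoswitch, so the lines differed in the heavy pool. Its difference was 1.02 (SE 0.13, adjusted p = 4.58e-06). The mRNA-binding protein YBX1 (1.09) and the Arp2/3 subunit ACTR2 (1.11) also had among the 4 lowest p in this direction.

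Against GAUi, where 1.26% of all genes were higher, glycolysis was higher for 3 of 21, synthetases for 2 of 20, mitosis for 1 of 30 with 1 lower, and translation factors for 3 of 42. With the 12 libraries of isoswitch and GAUi in the fit, 10, 4, 6 (with 2 lower) and 8 were higher. That fit also called more of all genes, 452 higher and 716 lower of 12449, against 160 and 406 of 12749 with 24 libraries. In the fit of 24 libraries, the lowest p against GAUi in the higher direction belonged to TXLNA (0.70), MCCD1 (1.14), KHDRBS1 (0.72) and GOT2, the mitochondrial aspartate aminotransferase (0.92). In the lower direction they belonged to HSPE1, the mitochondrial co-chaperonin (-0.75), WDR83OS (-0.84), NDUFA1 and NDUFB1. MCCD1 overlaps DDX39B, TXLNA overlaps CCDC28B, WDR83OS overlaps WDR83 and HSPE1 overlaps its read-through gene, so their reads are uncertain. Genes of these line differences were taken as 4 per direction, a number set after the counts were seen.

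ARPC1B differed from UAU by 1.40 (SE 0.15, adjusted p = 7.57e-07) and from GAUi by 0.44 (SE 0.15, adjusted p = 0.0904). Its low-fraction level was 370 ± 11 CPM in UAU, 269.8 ± 25.6 in control, 150.8 ± 7.07 in GAUi and 136.2 ± 11.6 in isoswitch, so both lines with the tRNA-Ile-GAU CRISPRi were low. Its high-fraction level was 166.9 ± 36.5, 176.7 ± 1.46, 132.6 ± 9.57 and 161.9 ± 3.94 CPM in the same order (SD, n = 3). S100A4 likewise was low in both GAU CRISPRi lines, with 440 ± 35 CPM in light and 479.2 ± 24.1 CPM in heavy polysomes of GAUi, and 481.9 ± 49.1 and 380 ± 30 CPM in isoswitch. In UAU it had 1166 ± 168 and 1911 ± 114 CPM. Its ratio in isoswitch differed from UAU by -1.06 (adjusted p = 3.01e-05) and from GAUi by -0.47 (adjusted p = 0.0901).

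**Figure D5:**
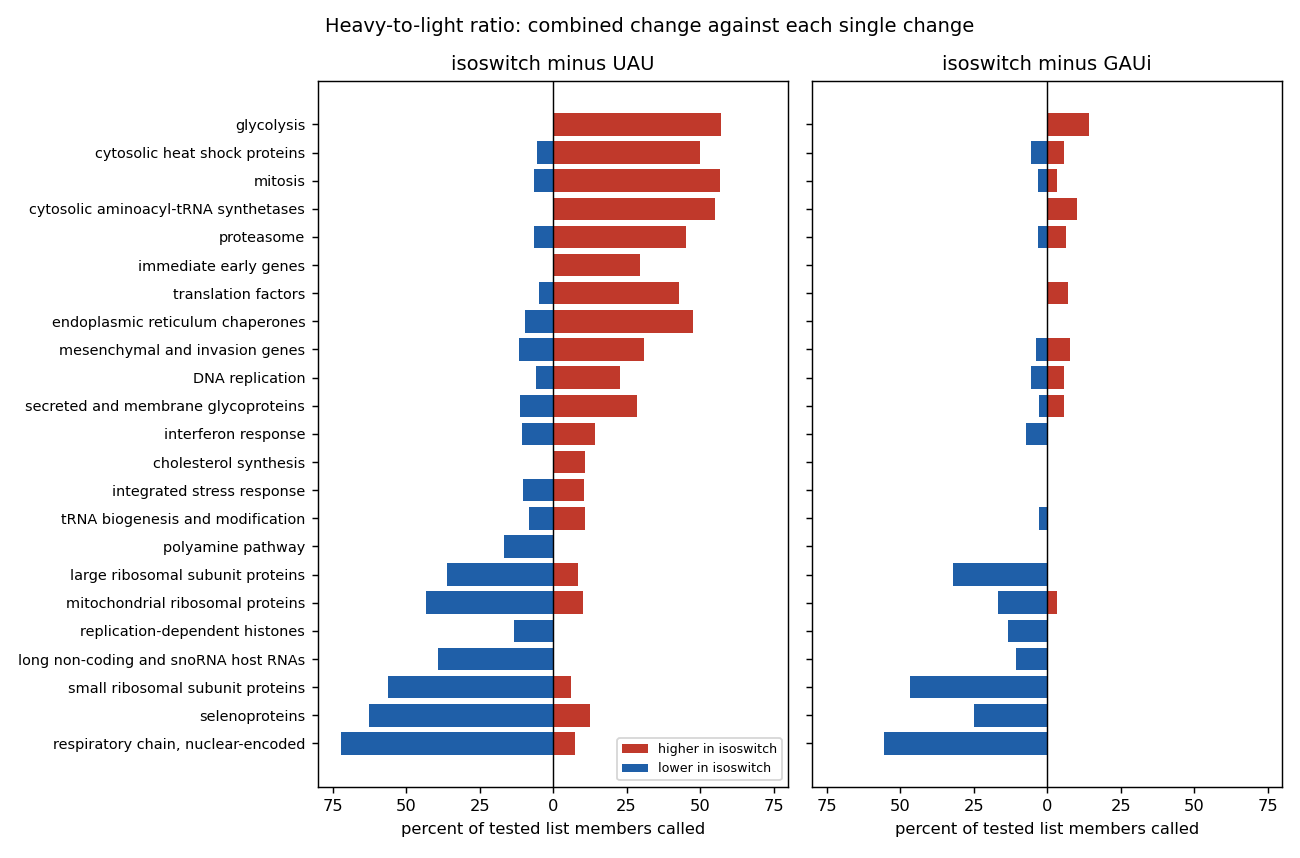
Percent of the tested members of 23 gene lists whose heavy-to-light ratio was called higher (red, to the right) or lower (blue, to the left) in isoswitch than in UAU (left panel) or in GAUi (right panel). The panels do not show which line had moved against control. Respiratory chain and small ribosomal subunit lists lie mostly on the lower side in both panels, whereas glycolysis, mitosis and synthetases lie on the higher side against UAU, and against GAUi 3 of 21, 1 of 30 and 2 of 20 of their members are higher.

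Without replicate B of the control low fraction, 521 of 12525 genes passed in the ratio change of isoswitch against control, 131 higher (1.05%) and 390 lower (3.11%). All 521 had the same sign with 12 libraries, 510 had an average log2 CPM of 3 or more, and 44 changed at least 2-fold. All 20 genes with the smallest p described above passed. The 2 fits share all other libraries, and the 20 genes were picked from them, so neither the signs nor these calls are an independent check. Of the lists, 20 of 23 then had at least 1 called member. Counts rose in the other contrasts too, to 1298 in the high and 841 in the low fraction. The high-fraction contrast does not use the levels of that library, but the spread between replicates is estimated from all libraries of a fit. The part of this in the higher counts was not tested.

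TIMM13, AAMDC and SF3B4 were taken from the smallest p of that fit after the values were seen, as genes with control low B far from A and C. TIMM13, an import chaperone of the mitochondrial intermembrane space, had 946.3, 1461.5 and 1013.2 CPM in the control low fraction, and replicate B lay above all 3 isoswitch values of 1396.8, 1078.8 and 1243.1 CPM. Among heavy polysomes TIMM13 had 642.8, 598.7 and 810.8 CPM in control and 368.7, 511.1 and 408.5 CPM in isoswitch, with no overlap. Its ratio difference was -0.79 with 12 libraries (adjusted p = 0.246) and -1.01 without control low B (adjusted p = 0.00339).

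AAMDC had 31.37, 53.09 and 35.60 CPM in the control low fraction and 75.19, 48.79 and 66.87 CPM in isoswitch, so replicate B of each line lay towards the other line. It rose in the low fraction by 0.67 (adjusted p = 0.0427), and its ratio difference was -0.98 with 12 libraries (adjusted p = 0.241) and -1.24 without control low B (adjusted p = 0.00246). The splicing factor SF3B4 went the other way, with 0.96 (adjusted p = 0.307) and 1.23 (adjusted p = 0.00537), and its control low levels were 62.2, 23.9 and 38.04 CPM.

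Genes were also grouped by where their mRNAs lay in the gradient of the UAU and GAUi lines, whose libraries are not among the 12. In the lightest of 5 equal bins (2470 genes, high minus low from -4.46 to -0.78 on the log2 scale), the median ratio change was -0.10, with medians of -0.11 in the high and -0.04 in the low fraction. At an unadjusted p under 0.05, 69 genes of this bin were higher and 229 lower. The other 4 bins had medians between -0.01 and 0.00 and 103 to 111 genes higher against 124 to 177 lower. Without control low B, 8 of 2501 genes of the lightest bin passed as higher and 102 as lower, with a median of -0.10. In that fit the heaviest bin had nearly as many lower genes, 92 with 30 higher, at a median of -0.02. The bins between had 50 to 80 lower and 27 to 33 higher. At an unadjusted p under 0.05, 335 genes were lower in the lightest and 366 in the heaviest bin. Without replicate A of the isoswitch high fraction, which lay at a median of -0.12 from the mean of B and C in this bin, the median was -0.06, and the part of light material in that library was not tested.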

How the data were processed

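The deposited files hold raw counts per gene symbol and library, not normalized by the authors. Build hg38 and the tools STAR, featureCounts and DESeq2 appear in the submitters' processing notes, while versions, annotation and strand setting were not given in the sources used here. Libraries were made with the QuantSeq 3' kit from 500 ng RNA. Of 26485 symbols, 23758 matched RefSeq (GRCh38.p14), which gave positions, 3 of the 27 named genes by synonym.

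Counts of the 12 libraries were filtered with filterByExpr, scaled with TMM and fitted with edgeR 4.0.16 (glmQLFit, glmQLFTest; R 4.3.3), with 4 group means and the interaction contrast. A wider fit used 24 libraries. SE is the log2 change divided by the square root of F. Calls are at a Benjamini-Hochberg adjusted p under 0.05 over all genes tested. CPM are TMM-scaled. Totals of 5310594 to 8974001 counts limit precision, and counting error understates the error. The script was tested on simulated data.

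The named genes were the 10 highest and 10 lowest called ratio changes at an average log2 CPM of 3 or more, filled up by smallest unadjusted p, and 7 genes an earlier report led with. Members and lists were chosen with earlier results of these data known. Alternatives were RLE scaling, DESeq2 1.42.0, other filters, replicate blocks, the number of libraries in the fit and leaving out each library. Total RNA was not used. Library letters were not taken as pairs.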

Additional observations from a re-analysis of the deposited data

Results flagged for a closer look

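Of the 27 named genes, 16 had a heavy-to-light ratio in isoswitch that differed from that in UAU, and 6 differed from that in GAUi, each by the test of the difference itself in the fit of 24 libraries (edgeR quasi-likelihood test, adjusted p under 0.05 over all genes tested). Most of these genes were picked for their isoswitch values, which enter both differences, so the counts are a description.

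Against UAU, the ratio was higher in isoswitch for ARPC1B (1.40), GRN (1.18, adjusted p = 4.25e-05), MYC (1.17, adjusted p = 0.0343), ZRANB2-AS1 (0.852), DIDO1 (0.632) and SEC31A (0.438). It was lower for COX17 (-1.11, adjusted p = 5.18e-05), S100A4 (-1.06), NOP16 (-0.838), ZDHHC7 (-0.812), PON2 (-0.780), SRXN1 (-0.674), NNT-AS1 (-0.667), NR2C2AP (-0.608), PMAIP1 (-0.533) and CENPBD1P1 (-0.512).

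Against GAUi, GRN was higher in isoswitch (0.767, adjusted p = 0.0137). Lower were COX17 (-0.777, adjusted p = 0.0108), NOP16 (-0.661, adjusted p = 0.00582), NNT-AS1 (-0.575), PMAIP1 (-0.560) and NR2C2AP (-0.471). GRN had 66.01 ± 4.17 CPM in the isoswitch high fraction against 29.40 ± 2.96 in UAU, 38.23 ± 1.80 in GAUi and 45.94 ± 4.62 in control (SD, n = 3, scaled over 24 libraries). COX17 had 35.91 ± 8.61 CPM there in isoswitch against 80.81 ± 11.8, 68.23 ± 4.98 and 65.83 ± 3.01 CPM. Both genes were at one end of the 4 lines in the high fraction of isoswitch, and in the low fraction their means ran from 23.18 to 29.16 CPM for GRN and from 290.8 to 325.3 CPM for COX17.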

How the results depend on the processing

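The count of the isoswitch ratio change was 1 in the report, 5 with DESeq2, 148 with no filter on low counts, and 0 with the replicate block by letter or by line and letter. Leaving out single libraries it ran from 0 (10 of 12) to 521, reached without control low B. With no filter on low counts the high fraction had 1005 and the low 556 calls, and the low fraction had 577 with 24 libraries in the fit. Leaving out libraries, the high fraction ran from 258 (without isoswitch high A) to 1298 and the low from 133 (without isoswitch low A) to 841. For GAUi the count was 44 with RLE scaling, 166 with DESeq2, 103 with no filter, 46 at a mean of at least 10 CPM, 0 with the block by line and letter, and 0 to 190 leaving out libraries. For UAU it was 414 with that block, 226 with 12 libraries in the fit and 367 to 1189. For isoswitch minus GAUi it was 156 with that block, 1168 with 12 libraries and 203 to 871. The cause was not tested. Of 18 same-letter pairs of deviations from the group means, 2 correlated above 0.1. Within a line, between its low and high fraction, 1 of 6 did. Deviations from means of so few replicates cannot show whether fractions with the same letter came from one sample. Whether the letters pair the libraries is thus not known.

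Of the named genes' alternatives, 456 kept direction and side of the threshold, 38 passed newly, 22 of them without control low B, and 12, all for ARPC1B, no longer passed. The other 6 changed sign: CDH11 ran from -0.955 to 0.408 and CD274 from -0.0715 to 0.254 leaving out libraries. All list alternatives, and those without control low B in the line differences, were added after seeing the data. Isoleucine content of the encoded proteins was not run, as no coding or protein sequence was used here.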
